A study of Mus musculus with 9 samples.

Results

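The genes described here are 40 protein-coding genes that make and assemble ribosomes in the nucleolus, including subunits and factors of RNA polymerase I. They were chosen by symbol from a named list, with earlier results of these data known, so the counts below are not independent of that choice. All 40 were found among the 49315 gene identifiers of the count table. The libraries are poly-A RNA sequencing of mouse pancreatic stellate cells, the fibroblast-like cells of the pancreas that lay down matrix when activated. The cells came from the strain C57BL6, had become immortal through spontaneous outgrowth, and had received Cas9 and a guide RNA by lentivirus. After selection with puromycin they were used as polyclonal populations, so a targeted population can hold cells whose gene was not cut. The group R26 normoxia carried the control guide R26 sg1 and was kept at 20% oxygen for 48 h, the group R26 hypoxia carried the same guide and was kept at 0.5% oxygen for 48 h, and the group HIF1a-ko hypoxia carried the guide HIF1a sg2 and was also kept at 0.5% oxygen for 48 h. There are 3 libraries in each group, and nothing in the labels says that each was grown as its own culture. The p-values therefore cover just the variation among these libraries, which may be technical. Cells with the HIF1a guide at 20% oxygen were not analysed here.

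As background, RNA polymerase I copies the ribosomal DNA into one long precursor RNA inside the nucleolus. Small nucleolar ribonucleoproteins (snoRNPs) guide chemical changes to that precursor, the small subunit processome and the large subunit assembly factors fold and cut it, and ribosomal proteins are added along the way. Making ribosomes takes a large share of a growing cell's energy and nucleotides. The transcription factor MYC is known to drive many of these genes, commonly through the E-box CACGTG, while HIF-1, whose oxygen-regulated subunit is encoded by Hif1a, binds the shorter core ACGTG. The ribosomal RNA itself and its precursor were not analysed here, since only the messenger RNAs of these genes are described.

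Promoter letters are shown first because many genes of ribosome making are known to carry an E-box there. RefSeq promoter windows (build GRCm38.p6, 250 bases before to 50 after each start) matched 36 of the 40 genes, which had 45 windows; Bop1, Fbl, Npm1 and Rrp12 had none. CACGTG, which reads the same on both strands, was found in 8 of the 45 windows (17.8%), which belong to 8 genes, and in 7.15% of the 32851 windows of the whole table. ACGTG on either strand, which lies inside every CACGTG, was found in 13 of the 45 windows (28.9%) and in 19.6% of all windows. The 13 windows include the 8 with CACGTG, and the 6447 of all windows with ACGTG include 2349 with CACGTG. The ACGTG shares therefore contain the E-box shares, and nothing about ACGTG outside CACGTG is read from them. Median GC was 59.7% in the 45 windows and 52.7% in all windows, and its part was not tested. In 7 related gene lists, 0% (RNA polymerase II) to 42.9% (RNA polymerase III) of windows held CACGTG, and 0% to 57.1% held ACGTG. Further small and large subunit factors had CACGTG in 24.1% and 19% of windows, and ACGTG in 51.7% and 40.5%. The 250 bases before the start are printed for Rrn3, with 2 copies of CACGTG, for Nop2, with 1 copy, and for Dkc1, with none. They lie at chr16:13780449-13780698, chr6:125131633-125131882 and chrX:75095604-75095853, all on the plus strand, and capitals mark CACGTG. Its first base lies 215 and 48 bases before the start in Rrn3 and 60 bases before it in Nop2.
Rrn3: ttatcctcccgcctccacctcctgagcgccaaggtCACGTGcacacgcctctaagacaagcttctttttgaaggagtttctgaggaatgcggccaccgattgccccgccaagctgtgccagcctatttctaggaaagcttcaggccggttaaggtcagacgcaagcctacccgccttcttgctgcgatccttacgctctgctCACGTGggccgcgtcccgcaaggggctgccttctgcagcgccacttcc
Nop2: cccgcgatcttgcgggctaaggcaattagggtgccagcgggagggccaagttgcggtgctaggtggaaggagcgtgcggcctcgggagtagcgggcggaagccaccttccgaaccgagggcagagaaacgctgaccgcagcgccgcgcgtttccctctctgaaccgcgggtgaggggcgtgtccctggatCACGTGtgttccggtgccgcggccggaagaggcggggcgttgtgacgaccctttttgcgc
Dkc1: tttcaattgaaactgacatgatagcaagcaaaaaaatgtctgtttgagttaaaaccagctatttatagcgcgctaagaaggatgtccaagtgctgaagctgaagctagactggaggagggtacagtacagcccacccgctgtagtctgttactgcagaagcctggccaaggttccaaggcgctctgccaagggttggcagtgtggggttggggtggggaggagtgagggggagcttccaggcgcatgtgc

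In the other 6 genes the E-box lay just after the RefSeq start, with its first base at position 3 in Pes1, 16 in Utp4, 18 in Wdr43, 25 in Tsr1, 38 in Utp20 and 41 in Mybbp1a, counted from 1 at the start. The sites are shown with up to 12 bases on each side because the letters next to CACGTG differ from gene to gene.
Pes1 (chr11:3963965-3963994, plus strand): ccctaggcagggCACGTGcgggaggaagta
Utp4 (chr8:106893643-106893672, plus strand): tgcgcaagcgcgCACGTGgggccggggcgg
Wdr43 (chr17:71616220-71616249, plus strand): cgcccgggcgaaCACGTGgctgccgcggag
Tsr1 (chr11:74898092-74898121, plus strand): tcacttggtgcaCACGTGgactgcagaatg
Utp20 (chr10:88826765-88826789, minus strand): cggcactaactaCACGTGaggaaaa
Mybbp1a (chr11:72441355-72441376, plus strand): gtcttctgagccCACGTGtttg

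Levels are given as CPM, the counts of a gene relative to the library total, scaled by TMM, a method that sets the libraries to a common level. Totals lay between 43837809 and 107840223 counts. A deeper library stood in every group, namely HIF1a-ko hypoxia 1, R26 normoxia 3 and R26 hypoxia 3. These 3 libraries stood apart on the first principal component (46.8% of the variance), at 63.6 to 87.2 against -50.2 to -30.6 for the other 6. The cause of this split was not tested, and the counts of called genes are given again for the 6 shallower libraries. The 11 stellate cell and fibroblast markers summed to 17545.6 to 19255.2 CPM in R26 normoxia, 19780.7 to 21321.8 in R26 hypoxia and 13480.9 to 13943.2 in HIF1a-ko hypoxia, with none at 0. The 6 epithelial markers summed to 15.7 to 69.9 CPM in R26 normoxia, 46.5 to 106.6 in R26 hypoxia and 14.1 to 59.1 in HIF1a-ko hypoxia. Of these, Krt19 (log2 fold change 1.52) and Muc1 (1.26) were called higher in R26 hypoxia than in R26 normoxia, and both were called lower in HIF1a-ko hypoxia than in R26 hypoxia (-1.62 and -1.46). The other 4 were not called in either comparison. In R26 hypoxia against R26 normoxia 3 of the 6 were above 0 and 3 below. Between the guides in low oxygen 2 were above 0 and 4 below. The 6 leukocyte markers summed to 9.18 to 85.4 CPM, the 5 endothelial markers to 7.37 to 20 and the 6 acinar markers to 4.52 to 13.6. Of the endothelial markers, Kdr and Egfl7 were called higher and Vwf lower in HIF1a-ko hypoxia than in either R26 group. Vwf was also called lower in R26 hypoxia than in R26 normoxia. Epithelial, leukocyte and endothelial sums were lower in the deeper than in the shallower libraries of their group, and Krt18 and Igha were at 0 in the 3 deeper libraries. Acinar sums were lower in HIF1a-ko hypoxia (4.52 to 5.39 CPM) than in both R26 groups (10.7 to 13.6 CPM). Of the acinar markers, Cpa1 was at 0 in every library but R26 hypoxia 2. The part that these differences play in the results below was not tested. Hif1a, the targeted gene, was at 203.7 ± 18.3 CPM (SD, n = 3) in R26 normoxia, 184.5 ± 20.1 CPM in R26 hypoxia and 121.7 ± 4.27 CPM in HIF1a-ko hypoxia (log2 fold change -0.6 ± 0.09 against R26 hypoxia, adjusted p = 0.000358 by edgeR). Its RNA was lower with the HIF1a guide but not lost, and RNA does not show how much protein was made.

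Every one of the 40 genes was counted in all 9 libraries, from 141 counts (Wdr74) to 93842 (Npm1), and all 40 passed the filter on low counts. Per kilobase of exon, the R26 normoxia level was highest for Npm1 (348.8 CPM per kb), followed by Ncl (55.7), Mybbp1a (47.9), Pes1 (38.2) and Polr1c (34.7). It was lowest for Rrp1b (1.9), Wdr12 (2.05), Polr1e (2.13) and Wdr74 (2.16). Npm1 encodes nucleophosmin, an abundant nucleolar chaperone, and Ncl encodes nucleolin. Some counts may be shared with near copies or overlapping genes. Of the 50-base words in the exons of Npm1, 24.3% also occur in other genes. The share was 23.3% for Pes1, 19.7% for Fbl and 18.6% for Nop56. For Tsr1 (29.1%) and Noc2l (19.2%) the most words were shared with Srr and Samd11, which overlap them on the other strand. The counts of these genes are uncertain, and how much of them is affected was not tested. In bulk RNA, fewer cells expressing a gene and less RNA per cell cannot be told apart, and a CPM is a share of the counted RNA, so a change in the total RNA of a cell would not show.

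**Figure D1:**
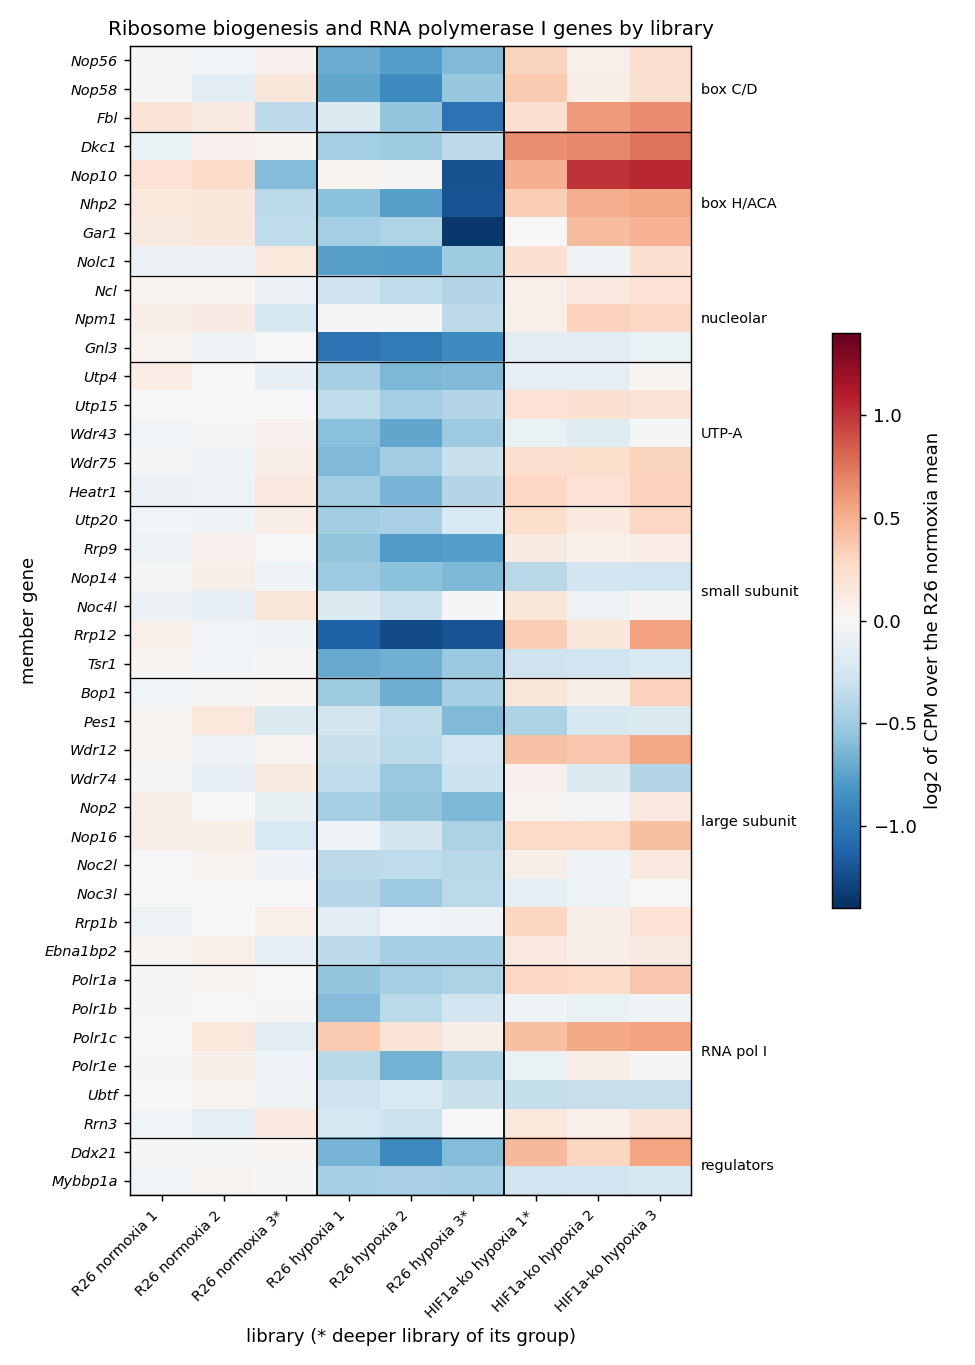
Heat map of the 40 genes (rows, by role) in the 9 libraries (columns; an asterisk marks the deeper library of a group), coloured by log2 of CPM over the R26 normoxia mean of that gene. The 3 R26 hypoxia columns are blue for most genes, most strongly for Rrp12 and, in R26 hypoxia 3, also for Gar1, Nop10 and Nhp2, while the 3 HIF1a-ko hypoxia columns are mostly pale red.

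Low oxygen with the control guide was compared first, R26 hypoxia against R26 normoxia, which asks how these genes respond to 48 h at 0.5% oxygen when HIF-1 can act. Of the 40 genes, 30 were lower and none was higher at an adjusted p under 0.05 (edgeR's quasi-likelihood test, Benjamini-Hochberg over 18211 genes), against 12.4% of all genes tested called lower and 12.8% called higher. At an unadjusted p under 0.05, 33 were lower and 1 was higher (17.9% and 18.1% of all genes), and DESeq2 called 31 lower and 0 higher (14.1% and 15.3%). The median log2 fold change was -0.46, with 39 of 40 below 0, beside -0.01 over all genes tested. In 32 of the 40, each R26 hypoxia library lay below each R26 normoxia library, an order found for 19.1% of all genes. Same-numbered libraries of these 2 groups varied together, though the shallower ones did so whatever their number. With the replicate number as a block 37 were lower and 1 higher, against 19.6% and 22.1% of the 17387 genes in that fit. The labels give no pairing, and the block cannot be told apart from the split into deeper and shallower libraries. Adjusted p-values with the block, given below for single genes, are therefore a description and change no call. In the 4 shallower libraries of these groups, fitted with the other 2, 32 were lower and 1 higher (14.6% and 15.4% of all genes).

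Rrp12, a factor for the maturation and export of the small subunit, fell the most. It lies on chromosome 19 (41862851 to 41896173, minus strand, ENSMUSG00000035049; GRCm38, GENCODE M21, as are the positions below). Its level was 21.4, 19.8 and 19.6 CPM in R26 normoxia 1 to 3 and 9.27, 8.55 and 8.81 CPM in R26 hypoxia 1 to 3. The R26 hypoxia libraries were all below the R26 normoxia libraries, at 43.8% of their mean. The log2 fold change was -1.19 ± 0.1 (SE; adjusted p = 5.48e-05, edgeR).

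Gnl3 encodes nucleostemin, a nucleolar GTP-binding protein (chromosome 14, 31012433 to 31019152, minus strand, ENSMUSG00000042354). Counts gave 75.3, 70.5 and 73.1 CPM in R26 normoxia and 35.7, 37.1 and 39.6 CPM in R26 hypoxia. The groups did not overlap, and the R26 hypoxia mean was 51.3% of the R26 normoxia mean (log2 fold change -0.96 ± 0.05, adjusted p = 3.28e-06 by edgeR). Ncl, which encodes nucleolin, fell from 536.8 to 586.5 CPM to 428.2 to 465.5 CPM (-0.35 ± 0.06, adjusted p = 0.00191). Npm1 gave 983.2, 1006.9 and 798.3 CPM under normoxia with the R26 guide and 911.8, 914.3 and 719.8 CPM in R26 hypoxia, with overlapping groups and a log2 fold change of -0.13 that was not called (adjusted p = 0.501; 0.0304 with the block).

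The box C/D snoRNP proteins direct ribose methylation of ribosomal RNA. Nop56 and Nop58, its paired scaffold proteins, had log2 fold changes of -0.69 ± 0.07 (adjusted p = 0.000143) and -0.7 ± 0.11 (adjusted p = 0.00168). Nop56 went from 58.1, 57.4 and 61.6 CPM to 36.4, 34.7 and 38.4 CPM, with no overlap. Fbl, the methyltransferase fibrillarin, gave 80.7, 77.6 and 55.2 CPM in R26 normoxia, then 62.4, 49 and 34.9 CPM in R26 hypoxia. The deeper library was the lowest of each group, the groups overlapped, and its -0.55 ± 0.22 was not called (adjusted p = 0.103), while with the block the adjusted p was 0.000125.

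Box H/ACA snoRNPs turn uridines into pseudouridines and also carry the telomerase RNA. Nhp2, a core protein, went from 36.2, 36.6 and 25.2 CPM to 21.9, 19.3 and 14.1 CPM (log2 fold change -0.83 ± 0.18, adjusted p = 0.00887). Dkc1, the pseudouridine synthase dyskerin (chromosome X, 75095854 to 75109777, plus strand, ENSMUSG00000031403), gave 31.3, 34.8 and 34.1 CPM in R26 normoxia, then 24, 23.6 and 25.9 CPM in R26 hypoxia. That is a log2 fold change of -0.45 ± 0.06 (adjusted p = 0.000788), with no overlap. Nolc1, a chaperone of snoRNPs, fell by 0.67 ± 0.1 on the log2 scale (adjusted p = 0.00155). Gar1 and Nop10, both small core proteins, were not called: Gar1 had -0.7 ± 0.25 (adjusted p = 0.0725; 0.000249 with the block) and Nop10 -0.28 ± 0.34 (adjusted p = 0.634; 0.0187 with the block). The 3 R26 normoxia libraries had 24.4, 25.3 and 13.9 CPM of Nop10 and those of R26 hypoxia 22, 21.4 and 9.07 CPM, so the deeper library differed from its group by more than the groups differed.

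The small subunit processome holds the precursor RNA as it is copied. All 5 genes of its UTP-A part, which is also needed for transcription of ribosomal DNA, were lower: Wdr43 (-0.6), Utp4 (-0.57), Heatr1 (-0.51), Wdr75 (-0.47) and Utp15 (-0.41, all log2 fold changes). Utp15 showed little spread, with 37.5, 37.6 and 37.7 CPM in R26 normoxia and 29.5, 27 and 28.2 CPM in R26 hypoxia. Of the 6 other small subunit factors, 5 were lower. Beside Rrp12 these were Rrp9, which binds the processome's guide snoRNA (-0.7 ± 0.07), Tsr1, a GTPase-like factor of late maturation (-0.63 ± 0.05), Nop14 (-0.57 ± 0.06) and Utp20 (-0.38 ± 0.08). Tsr1 went from 80.6, 76.9 and 80.1 CPM to 48.5, 49.8 and 55.3 CPM. Its exons overlap those of Srr on the other strand over 1240 bases (32.3% of the exons), and the strand setting of the counting is not given in the sources used here, so reads of the pair may be mixed; Srr had a log2 fold change of 0.3 in this comparison. Noc4l, the other gene, gave 12.2 to 14.9 CPM in R26 normoxia and 10.7 to 13 CPM in R26 hypoxia and was not called (adjusted p = 0.315).

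Among the 10 large subunit assembly factors 7 were lower. Nop2, a methyltransferase of the large ribosomal RNA, had a log2 fold change of -0.55 ± 0.07, from 50.5 to 57.9 CPM down to 35 to 39.4 CPM. The 3 genes of the PeBoW complex, which is needed to process the precursor of the large subunit RNA, were all lower: Bop1 (-0.54 ± 0.08), Pes1 (-0.4 ± 0.11) and Wdr12 (-0.32 ± 0.06, log2 fold changes). The call for Pes1 (adjusted p = 0.0295) was lost without any 1 of R26 normoxia 1 or 2, R26 hypoxia 2 or 3 or HIF1a-ko hypoxia 3 (adjusted p up to 0.111), and was 0.000129 with the block. Ebna1bp2 (-0.43), Noc3l (-0.42) and Noc2l (-0.37) were lower too. Wdr74 (-0.39, adjusted p = 0.081), Nop16 (-0.24, adjusted p = 0.171) and Rrp1b (-0.08, adjusted p = 0.519) were not called, and with the block Wdr74 and Nop16 were (adjusted p = 0.0212 and 0.0147).

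Of the 6 RNA polymerase I genes 4 were lower. Polr1a, its largest subunit, fell from 79.3, 82.5 and 80.7 CPM to 55.5, 58.6 and 59.5 CPM (log2 fold change -0.48 ± 0.05, adjusted p = 0.000124). Polr1e (-0.48) and Polr1b (-0.41) were lower as well, as was Ubtf, the factor UBF that keeps ribosomal DNA open (-0.27 ± 0.05, adjusted p = 0.00232). Polr1c, a subunit that RNA polymerase I shares with RNA polymerase III, was the only gene of the 40 above 0. Its level was 79.1, 87.3 and 70.6 CPM in R26 normoxia, then 101.9, 89.6 and 83.8 CPM in R26 hypoxia, with overlapping groups and a log2 fold change of 0.22 ± 0.09 (adjusted p = 0.119; 0.00792 with the block and 0.0211 in the shallower libraries). Rrn3, the factor that brings the polymerase to its promoter, had -0.17 ± 0.09 (adjusted p = 0.223; 0.0177 with the block). Both regulators fell: Ddx21, an RNA helicase that links polymerase activity and RNA processing, with a log2 fold change of -0.71 ± 0.08, and Mybbp1a, a nucleolar MYB-binding protein, with one of -0.46 ± 0.04, at 271.5 to 286.9 CPM in R26 normoxia and 200.6 to 203.5 CPM in R26 hypoxia.

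**Figure D2:**
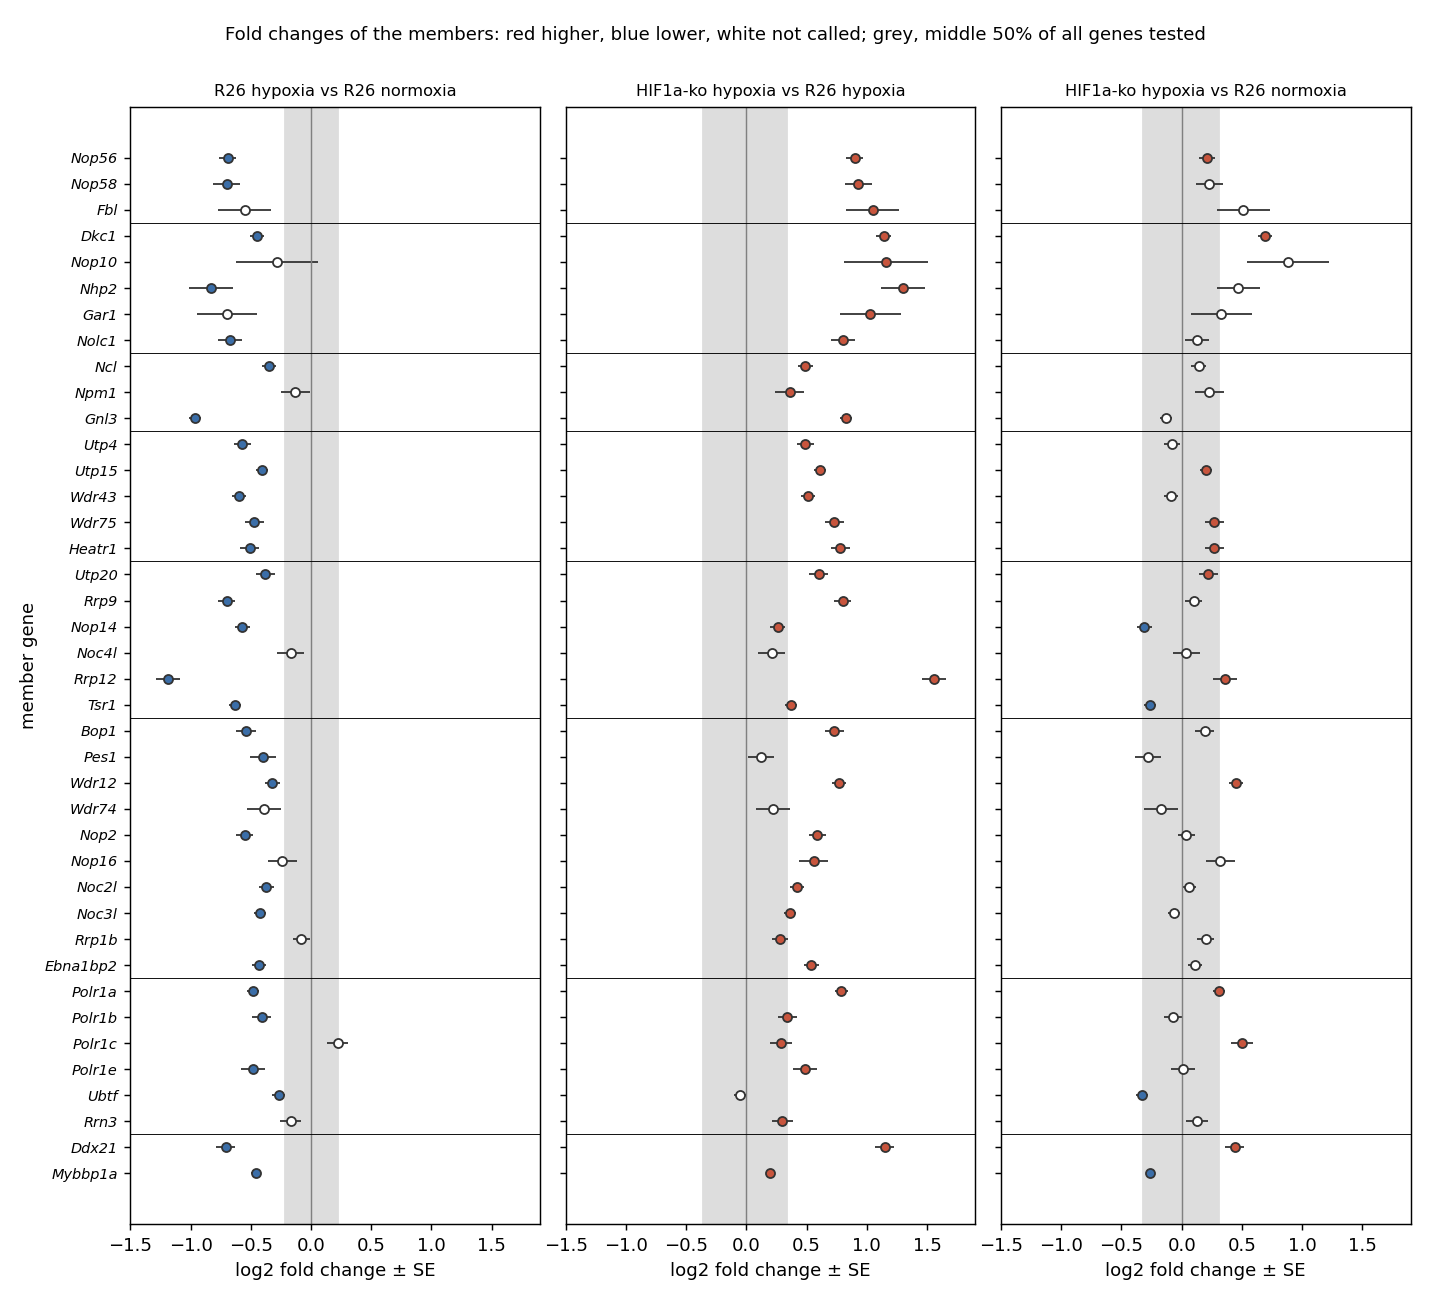
Log2 fold change of each gene with its approximate standard error (x axis) in the 3 comparisons (panels). Red marks genes called higher, blue lower and white not called, and the grey band is the middle 50% of all genes tested. In the left panel 30 genes are blue and none is red, in the middle panel 36 are red and none is blue, and in the right panel 11 are red and 4 blue.

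The HIF1a guide was then compared with the control guide in low oxygen, HIF1a-ko hypoxia against R26 hypoxia. This comparison shares the R26 hypoxia libraries with the first, so the 2 sets of values are not independent and each is given on its own. Of the 40 genes, 36 were higher and none was lower, against 22% of all genes tested called higher and 23.8% called lower. At an unadjusted p under 0.05 the counts were also 36 and 0 (24.9% and 26.7% of all genes), as they were by DESeq2 (18.5% and 18.4%). The median log2 fold change was 0.58, beside -0.02 over all genes. Each HIF1a-ko library lay above each R26 hypoxia library in 36 of the 40, an order found for 26.4% of all genes. In the shallower libraries 36 were higher and none lower (25.9% and 25.4% of all genes). Mki67, a marker of cycling cells, was at 110.2 ± 15.1 CPM in R26 hypoxia and 402.9 ± 13.9 CPM in HIF1a-ko hypoxia (log2 fold change 1.87 ± 0.11, adjusted p = 1.12e-06), and Myc went from 39.6 ± 3.38 to 53.7 ± 2.29 CPM (0.44 ± 0.08, adjusted p = 0.00155). Stellate cell and fibroblast markers summed to 19780.7 to 21321.8 CPM in R26 hypoxia and 13480.9 to 13943.2 CPM in HIF1a-ko hypoxia. Of these 11 markers 5 were called lower, 1 (Acta2) was called higher and 5 were not called. The part of these differences in the values of the 40 genes was not tested. Against R26 normoxia, R26 hypoxia had a log2 fold change of 0.01 for Myc (adjusted p = 0.932) and 0.43 for Mki67 (adjusted p = 0.0169).

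Rrp12 had the largest difference here too, with 25.7, 22.7 and 29.9 CPM in HIF1a-ko hypoxia against 8.55 to 9.27 CPM in R26 hypoxia. That is 2.94-fold higher (log2 fold change 1.56 ± 0.1, adjusted p = 1.92e-06), and the lowest HIF1a-ko library was well above the highest R26 hypoxia library. Box H/ACA genes had a median of 1.14, the highest of the 8 roles. Nhp2 was at 41.5, 46.6 and 47.5 CPM (1.3 ± 0.18, adjusted p = 0.000286), and Dkc1 at 52.6, 53.1 and 56.5 CPM (1.14 ± 0.06, adjusted p = 6.74e-07). Gar1 (1.03 ± 0.25, adjusted p = 0.00774) and Nolc1 (0.8 ± 0.1, adjusted p = 0.000177) were also higher. Nop10 was at 29.9, 42.6 and 44.2 CPM, its deeper library the lowest, and its 1.16 ± 0.35 (adjusted p = 0.0209) was no longer called without HIF1a-ko hypoxia 2 or 3 (adjusted p up to 0.0678).

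All 3 box C/D genes rose, Fbl by 1.05 ± 0.22, Nop58 by 0.93 ± 0.11 and Nop56 by 0.9 ± 0.07 (log2 fold changes, adjusted p = 0.00338, 0.000101 and 6.15e-06). Fbl was at 82.6, 107.7 and 112.5 CPM, above the 34.9 to 62.4 CPM of R26 hypoxia. Gnl3 was 1.78-fold higher, at 65.6, 65.8 and 68.7 CPM, and Ncl 1.4-fold higher, at 598.4, 622.8 and 652.6 CPM. Npm1 was 1.29-fold higher (977, 1164.5 and 1132.2 CPM, adjusted p = 0.0332), a call lost without R26 hypoxia 3 or HIF1a-ko hypoxia 2 or 3 (adjusted p up to 0.11).

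The UTP-A genes were all higher, from 0.49 for Utp4 to 0.78 for Heatr1 on the log2 scale. In the other small subunit factors, Rrp9 (0.8), Utp20 (0.6), Tsr1 (0.37) and Nop14 (0.26) were higher beside Rrp12. Noc4l was not called (0.21, adjusted p = 0.147). In the large subunit group 8 of 10 were higher, led by Wdr12 (0.77 ± 0.06), Bop1 (0.73 ± 0.08) and Nop2 (0.59 ± 0.07). Pes1, which binds both Bop1 and Wdr12, was not called: it was at 85.8, 98.7 and 100.1 CPM, overlapping the 75.1 to 96.8 CPM of R26 hypoxia (0.12 ± 0.11, adjusted p = 0.441). Wdr74, the least counted gene of the set, was not called either (3.03 to 4.21 CPM against 2.81 to 3.27 CPM, adjusted p = 0.25).

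Of the 6 polymerase genes 5 were higher. Polr1a rose to 99.1, 96.3 and 105.2 CPM, 1.73-fold above R26 hypoxia (log2 fold change 0.79 ± 0.05, adjusted p = 1.16e-06). Smaller rises were called for Polr1e (0.49), Polr1b (0.34), Rrn3 (0.3) and Polr1c (0.29). The calls for Rrn3 (adjusted p = 0.0227) and Polr1c (adjusted p = 0.0271) depended on single libraries: Rrn3 was not called without R26 hypoxia 1 or 2 or HIF1a-ko hypoxia 1 or 3, and Polr1c not without R26 hypoxia 2 or 3 or HIF1a-ko hypoxia 2 or 3 (adjusted p up to 0.0842 and 0.0845). Ubtf was at 154.9, 156.1 and 155.9 CPM in HIF1a-ko hypoxia and 159.8, 168.7 and 156.6 CPM in R26 hypoxia (-0.05 ± 0.05, adjusted p = 0.366). Ubtf (chromosome 11, 102304560 to 102319742, minus strand, ENSMUSG00000020923) was the only gene of the 40 with a value below 0 in this comparison. Ddx21 was at 221.7, 200.2 and 237.1 CPM against 103.1, 87.7 and 106.8 CPM, 2.21-fold higher (1.15 ± 0.08, adjusted p = 4.15e-06), while Mybbp1a was 1.15-fold higher (0.2 ± 0.04, adjusted p = 0.00248).

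**Figure D3:**
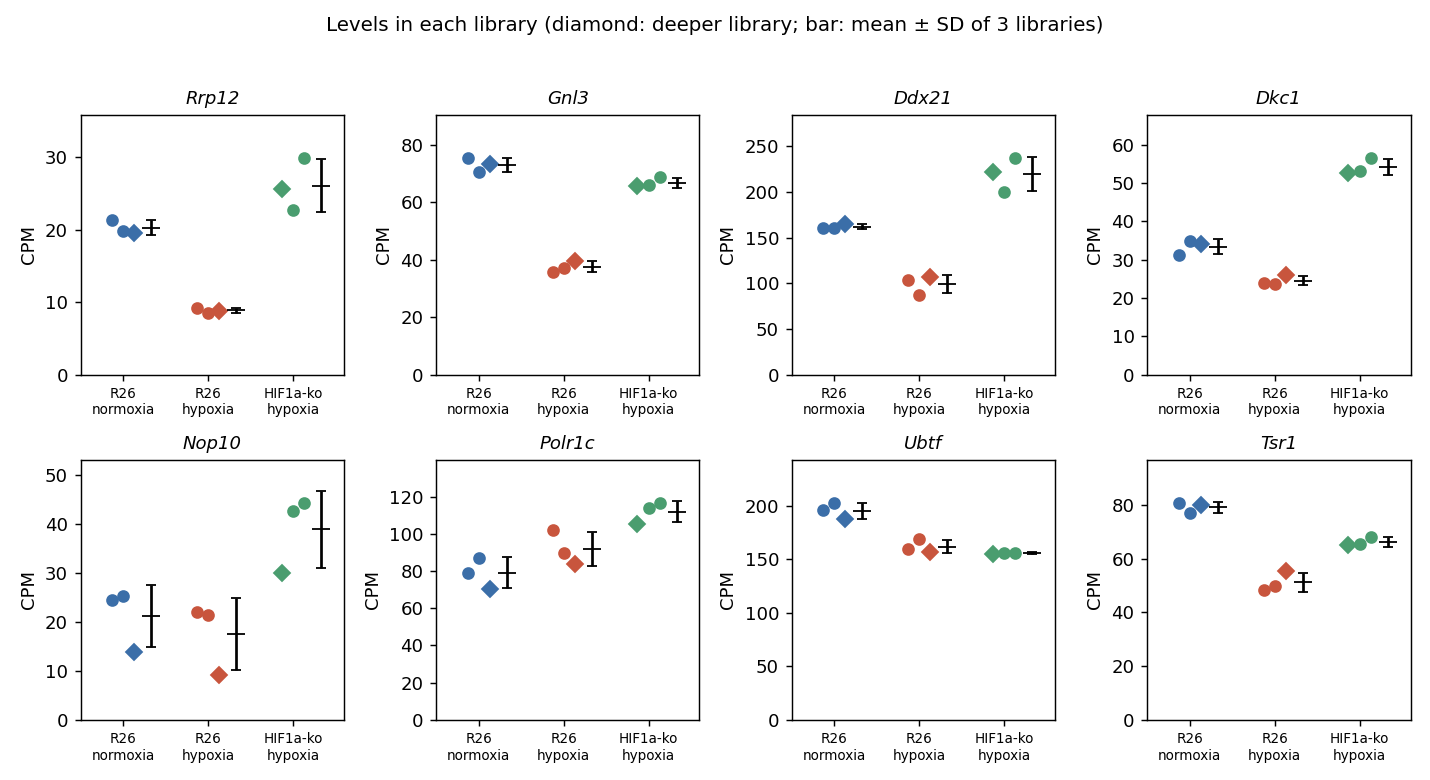
CPM (y axis, from 0) of 8 genes in each library of the 3 groups; points are libraries, diamonds the deeper ones, and bars give the mean and SD of 3 libraries. Rrp12, Gnl3, Ddx21 and Dkc1 are lowest in R26 hypoxia with no overlap, Nop10 has its lowest point at the diamond in all groups, Polr1c is not lower in R26 hypoxia, Ubtf is low in both hypoxia groups, and Tsr1 in HIF1a-ko hypoxia lies between the R26 groups.

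HIF1a-ko hypoxia was last set against R26 normoxia, which asks where these genes stood when low oxygen and the HIF1a guide were combined. It shares libraries with both other comparisons, and in this fit its log2 fold change is the sum of theirs. Of the 40 genes, 11 (27.5%) were higher and 4 (10%) lower, and 25 were not called. Of all genes, 19.5% were called higher and 21.9% lower. The share of the 40 called higher was not far above that of all genes, and the share called lower was below it. Beside this, Mki67 (2.3) and Myc (0.46, log2 fold changes) were called higher, and 6 of the 11 stellate cell and fibroblast markers were called lower and 1 higher. The part of these differences in the values of the 40 genes was not tested here either. The median log2 fold change of the 40 was 0.16, beside -0.01 over all genes. Each HIF1a-ko library was above each R26 normoxia library in 20 of the 40 (25.5% of all genes) and below in 7 (27.8% of all genes). These counts moved with single libraries. Without R26 normoxia 1, without R26 normoxia 2 or without HIF1a-ko hypoxia 3 the number called higher was 7, and in the 6 shallower libraries 21 were higher and 5 lower (23.6% and 22.5% of all genes). DESeq2 called 16 higher and 4 lower (18.3% of all genes each way), and at an unadjusted p under 0.05 there were 18 higher and 6 lower (22.7% and 25.5%).

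Dkc1 was the highest of those called, at 52.6, 53.1 and 56.5 CPM against 31.3, 34.8 and 34.1 CPM in R26 normoxia, 161.8% of the R26 normoxia mean (log2 fold change 0.69 ± 0.06, adjusted p = 1.82e-05). Polr1c came next (105.6, 113.8 and 116.5 CPM against 79.1, 87.3 and 70.6 CPM; 0.5 ± 0.09, adjusted p = 0.00173). It was followed by Wdr12 (0.45 ± 0.06), Ddx21 (0.44 ± 0.08), Rrp12 (0.36 ± 0.1) and Polr1a (0.31 ± 0.05). Utp15 (0.2), Heatr1 (0.27), Wdr75 (0.27), Utp20 (0.22) and Nop56 (0.21) complete the 11. The calls for Nop56, Wdr75, Heatr1 and Utp20 were lost when single libraries were left out (adjusted p up to 0.104, 0.0912, 0.0878 and 0.141), among them R26 normoxia 1, R26 normoxia 2 and HIF1a-ko hypoxia 3 for each.

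The 4 genes that were lower (10%, beside 21.9% of all genes) come from different steps. Nothing particular to the 40 genes is read from their number. Ubtf was at 154.9 to 156.1 CPM against 187.2 to 202.2 CPM in R26 normoxia (-0.33 ± 0.05, adjusted p = 0.000349). Nop14, of the small subunit processome, was at 45.3 to 49.2 CPM against 56.9 to 62.9 CPM (-0.31 ± 0.06, adjusted p = 0.00203). Tsr1 was at 64.9, 65.3 and 68.2 CPM against 76.9 to 80.6 CPM (-0.26 ± 0.05, adjusted p = 0.0039), and Mybbp1a at 228.5, 230.4 and 237.7 CPM against 271.5 to 286.9 CPM (-0.26 ± 0.04, adjusted p = 0.000686). In each of the 4, no HIF1a-ko library reached an R26 normoxia library. Tsr1, Nop14 and Mybbp1a lay between both R26 groups, while for Ubtf the HIF1a-ko values lay just below those of R26 hypoxia, a difference that was not called.

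Among the 25 genes not called, Nop2 (102.9% of the R26 normoxia mean), Noc2l (103.9%), Polr1e (100.6%) and Noc3l (95.6%) were near R26 normoxia, with log2 fold changes of 0.04 ± 0.07, 0.06 ± 0.06, 0.01 ± 0.1 and -0.06 ± 0.05. Others had larger values with wide errors. Nop10 was at 183.4% of the R26 normoxia mean (0.88 ± 0.34, adjusted p = 0.0682), Fbl at 141.9% (0.51 ± 0.22, adjusted p = 0.0943) and Nhp2 at 138.3% (0.47 ± 0.18, adjusted p = 0.0602). In the shallower libraries alone these 3 were called higher (adjusted p = 2.16e-07, 0.000232 and 0.000409), and Pes1 was called lower (-0.29, adjusted p = 0.000568).

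Some of these box H/ACA and box C/D genes also differed between deeper and shallower libraries. In a fit with the depth class as a term, 9 of the 40 genes were lower and 5 higher in the deeper libraries, against 15.1% and 12.3% of all genes tested. The share of the 40 that was higher is near that of all genes. The deeper libraries had lower Nop10 (-0.86 on the log2 scale), Gar1 (-0.61), Fbl (-0.53), Nhp2 (-0.41), Npm1 (-0.3) and Pes1 (-0.28), and higher Nop58 (0.24), Noc4l (0.22) and Nolc1 (0.21). The exons of Nop10 and Nhp2 sum to 1109 and 1146 bases, those of Gar1 to 1714, those of Fbl to 4209 and those of Nop58 to 10758. What differed between the deeper and shallower libraries was not tested.

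**Figure D4:**
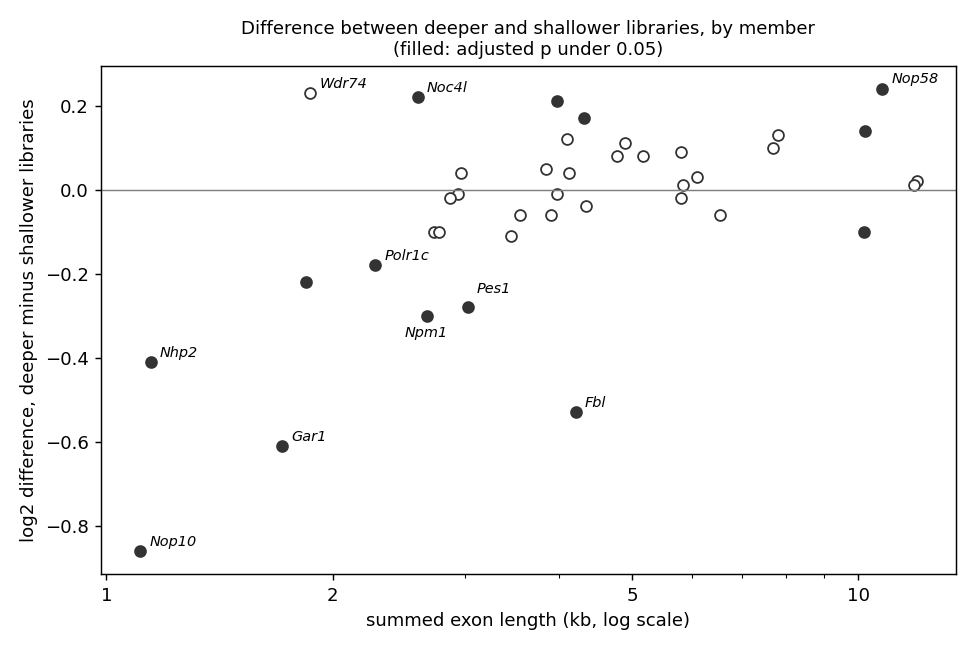
Log2 difference between deeper and shallower libraries (y axis) against the summed exon length of each of the 40 genes (x axis, kb, log scale), with filled points at an adjusted p under 0.05. Nop10, Gar1, Fbl and Nhp2 lie lowest, between -0.86 and -0.41, and Nop58 highest at 0.24.

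Other genes of ribosome assembly had medians below 0 in the first comparison and above 0 in the second. Of 37 further small subunit factors tested, 20 were lower and none higher in R26 hypoxia against R26 normoxia (median log2 fold change -0.24; 12.4% of all genes were called lower), led by Nol10 (-0.69). In the same list 23 were higher and none lower in HIF1a-ko hypoxia against R26 hypoxia (median 0.3; 22% of all genes were called higher), led by Pno1 (1.07). Of 46 further large subunit factors, 31 were lower in the first comparison (median -0.35), with Rrp15 at -0.7. In the second, 33 were higher (median 0.32), with Mrto4 at 0.85, and Rrp1 (-0.5) and Ddx10 (-0.23) were lower. Against R26 normoxia, HIF1a-ko hypoxia had 8 higher (21.6%) and 5 lower (13.5%) in the small subunit list, from Nol6 (-0.58) to Nob1 (0.47), with a median of 0.01. In the large subunit list 8 were higher (17.4%) and 12 lower (26.1%), from Rrp1 (-0.6) to Rbm28 (0.77), with a median of -0.07. Of all genes, 19.5% were called higher and 21.9% lower in that comparison, and nothing particular to these lists is read from the counts. No test of one list against another was made.

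Of the 10 further RNA polymerase I genes, 2 (20%) were lower and 1 (10%) higher in R26 hypoxia against R26 normoxia, beside 12.4% and 12.8% of all genes. Between the guides in low oxygen 2 (20%) were higher and 1 (10%) lower, beside 22% and 23.8%. Against R26 normoxia, HIF1a-ko hypoxia had 2 (20%) higher and 3 (30%) lower, beside 19.5% and 21.9%. These counts are small, and nothing particular to this list is read from them. In R26 hypoxia against R26 normoxia, Twistnb (-0.42), a polymerase subunit, and Taf1c (-0.28), of its promoter selectivity factor, were lower and Ttf1 (0.24), the transcription terminator, was higher. In HIF1a-ko hypoxia against R26 hypoxia, Twistnb (0.46) and Taf1d (0.33) were higher and Cd3eap (-0.38) was lower. Of 7 core subunits of RNA polymerase II, only Polr2a was called in the first comparison (-0.2). Between both guides in low oxygen, 3 RNA polymerase II subunits were higher and Polr2a lower (-0.18). Of 11 specific subunits of RNA polymerase III, 4 (36.4%) were lower and none higher in the first comparison, with a median of -0.00. In the second, 5 (45.5%) were higher and none lower, with a median of 0.07. Against R26 normoxia, Polr2a (-0.38), Cd3eap (-0.58) and Taf1c (-0.45) were among those lower in HIF1a-ko hypoxia. Of 12 noncoding host genes of snoRNAs that were tested, Snhg18 (0.54) was higher and Snhg17 (-0.45) and Snhg15 lower in R26 hypoxia against R26 normoxia. Snhg15 was in turn higher in HIF1a-ko hypoxia than in R26 hypoxia, and Snhg11 (-2.47) and Snhg18 (-1.18) were lower.

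The ribosome's own proteins are encoded by a large set of short, abundant messenger RNAs. Of 79 cytosolic ribosomal protein genes, none was called in either direction in R26 hypoxia against R26 normoxia by edgeR or DESeq2, with 1 at an unadjusted p under 0.05 (lower). Of all genes, edgeR called 12.8% higher and 12.4% lower. The median log2 fold change was -0.04, and 0.06 in the shallower libraries, where 5 were called higher and 1 lower (15.4% and 14.6% of all genes). With the HIF1a guide in low oxygen 8 (10.1%) were higher than with the control guide, led by Rps2 (0.65 ± 0.06, adjusted p = 1.51e-05 by edgeR). None was lower, and the median was 0.28. The share called higher was below the 22% of all genes, though 78 of the 79 had values above 0 (8894 of all 18211 genes). In the shallower libraries 37 were higher and 2 lower (25.9% and 25.4% of all genes). Against R26 normoxia 10 (12.7%) were higher and none lower (median 0.24), beside 19.5% and 21.9% of all genes. Here 77 of the 79 had values above 0 (8938 of all 18211 genes). There the shallower libraries gave 52 higher and 1 lower (23.6% and 22.5% of all genes). Their summed level was 35287.8 CPM in R26 hypoxia 3 and 39517.2 CPM in R26 normoxia 3, both deeper libraries, and 50808.4 to 59688.6 CPM in the other 7. HIF1a-ko hypoxia 1, also deeper, was among those 7, at 54439.2 CPM. The difference between this list and the 40 genes was not tested.

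**Figure D5:**
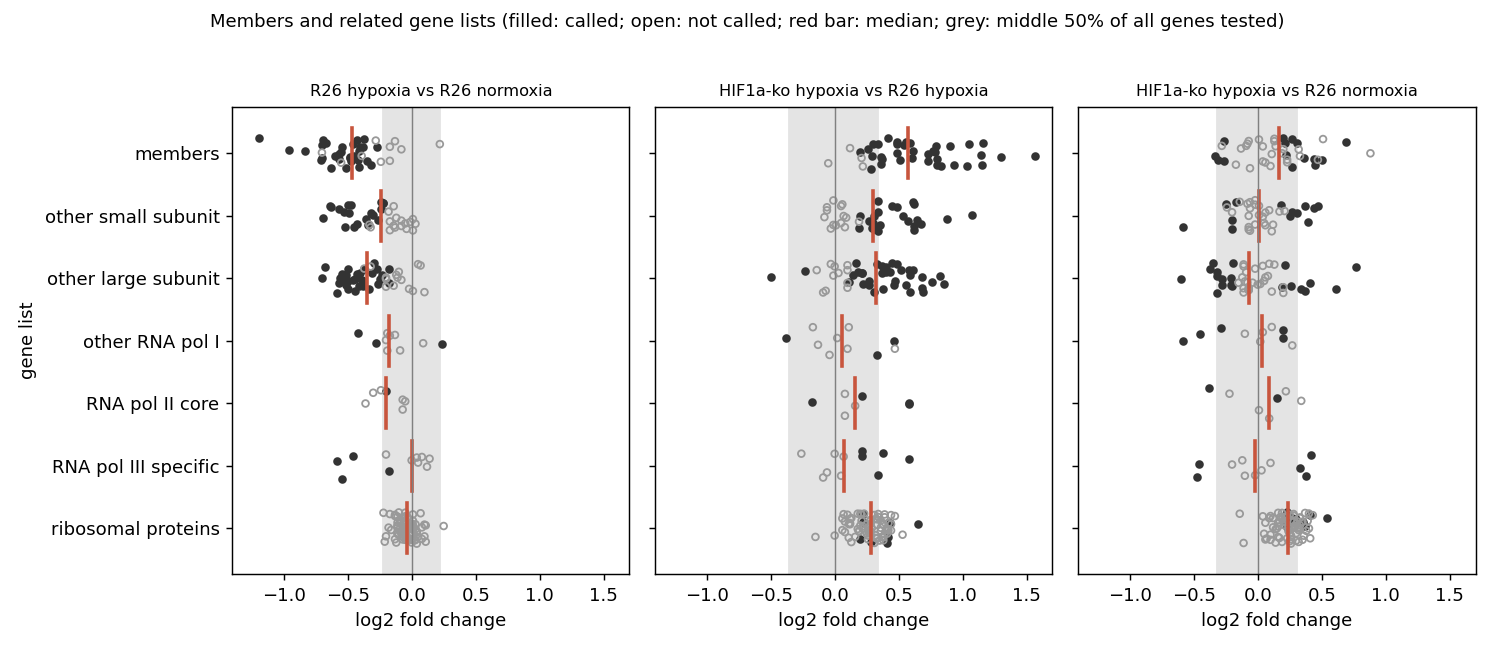
Log2 fold changes (x axis) of the 40 genes and of 6 related gene lists (rows) in the 3 comparisons (panels); filled points were called, open points were not, red bars are medians and grey bands the middle 50% of all genes tested. The 40 genes have medians of -0.46, 0.58 and 0.16, and the 79 ribosomal protein genes medians of -0.04, 0.28 and 0.24.

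The E-box sequences printed above can be set beside these values, as a description with no test. Of the 8 genes with CACGTG in their window, 7 were lower in R26 hypoxia against R26 normoxia (median log2 fold change -0.51). Of the 28 whose windows lacked it 21 were lower (median -0.44), beside 12.4% of all genes. In HIF1a-ko hypoxia against R26 hypoxia 7 of the 8 were higher (median 0.43) and 25 of the 28 (median 0.67), beside 22% of all genes. In HIF1a-ko hypoxia against R26 normoxia 1 of the 8 was higher and 2 were lower (median -0.08). Of the 28, 9 were higher and 2 lower there (median 0.2), beside 19.5% and 21.9% of all genes. Rrn3, with 2 copies, was the gene of the 8 not called in the first comparison, and Pes1, with 1 copy after its start, the gene not called in the second. Dkc1, whose window held neither CACGTG nor ACGTG, was 2.21-fold higher in the second. A match of letters is not evidence that a factor binds there, and no match says only that these letters are absent from the window.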

How the data were processed

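Poly-A RNA of 9 libraries in 3 groups was sequenced. The authors deposited whole-number counts per gene, and GRCm38, STAR, Trimmomatic, featureCounts, bcl2fastq 2.17 and DESeq2 are named per the submitters' processing notes. The strand setting and annotation release were not stated there. Of the 49315 identifiers, 49056 had a symbol in GENCODE M21, and the other 259 held 0.015 to 0.0178% of the counts. Riok2, Snhg4, Snhg7 and Snhg16 were not analysed here. Single genes of the RNA polymerase III list are not reported here.

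Counts were scaled by TMM, filtered with filterByExpr and fitted in edgeR 4.0.16 (R 4.3.3) with all 9 libraries in 1 model. The quasi-likelihood test was two-sided, p-values were adjusted over 18211 genes by Benjamini-Hochberg, and a gene was called at an adjusted p under 0.05. SE is an approximate standard error, the size of the log2 fold change divided by the square root of the F statistic of the test. The fit was tested on simulated counts. Alternatives were RLE and upper quartile scaling, DESeq2 1.42.0, other filters, the 2 groups alone, a replicate block, depth class (totals above 70000000 counts), the 6 shallower libraries and leaving out each library. All 40 genes could be named, and of each related list the extreme called genes and those completing a count of 5 or fewer. The 40 genes and the lists were chosen with earlier results of these data known.

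Between R26 hypoxia and R26 normoxia the deviations of same-numbered libraries correlated at 0.49, 0.542 and 0.859, which met the rule used for a replicate block. The shallower libraries with different numbers correlated as much (0.599 and 0.522), and the third libraries of both groups are the deeper ones. Pairing by number therefore cannot be told apart from the depth split, and the labels give no pairing. Library totals, 43837809 to 107840223 counts, put the least counted of the 40 genes at 141 counts.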

Additional observations from a re-analysis of the deposited data

How the results depend on the processing

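In R26 hypoxia against R26 normoxia, leaving out 1 library gave 29 to 31 of the 40 genes called, 29 to 31 lower and 0 higher each time, and 3287 to 4373 of all genes. With the depth class as a term, in the 6 shallower libraries and with the replicate block, 1 of the 40 was higher, and all genes called were 6959 with the depth term and 7259 with the block. In HIF1a-ko hypoxia against R26 hypoxia, leaving out 1 library gave 32 to 36 called, 32 to 36 higher and 0 lower each time, and 7195 to 8400 of all genes. In HIF1a-ko hypoxia against R26 normoxia it gave 11 to 21 called, 7 to 15 higher and 4 to 6 lower, and 6309 to 7995 of all genes. There the depth term gave 27 called and 21 higher, with 9617 of all 18211 genes called. The 6 shallower libraries gave 26 called and 21 higher, with 8377 of all 18159 genes called. The cause was not tested.

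The values of 3 genes changed sign. Nop10 in R26 hypoxia against R26 normoxia was 0.05 on the log2 scale without R26 hypoxia 3 and as low as -0.50 without R26 normoxia 3. In HIF1a-ko hypoxia against R26 normoxia, Noc4l was -0.01 without R26 normoxia 2 and -0.01 without HIF1a-ko hypoxia 1, and up to 0.16 without R26 normoxia 3. Polr1e was -0.00 without R26 normoxia 1, -0.00 without R26 normoxia 3 and -0.03 without HIF1a-ko hypoxia 2, and up to 0.08 without HIF1a-ko hypoxia 1. None of the 3 was called in those comparisons with all 9 libraries in the fit.

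Same-numbered libraries did not vary together in the comparisons with HIF1a-ko hypoxia (correlations of -0.668, 0.59 and -0.67 against R26 hypoxia, and -0.631, 0.597 and -0.683 against R26 normoxia). With the replicate block the comparison with R26 hypoxia gave 31 of the 40 higher. Of all 17657 genes in that fit 6761 were called, 3204 of them higher. The comparison with R26 normoxia gave 11 of the 40 higher and 4 lower. Of all 17669 genes in that fit 6240 were called, 2997 higher and 3243 lower. Other scalings, filters and DESeq2 kept each count within 1.5 times.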
